A study of Mus musculus with 9 samples.

Results

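The knockdown of Gpc2 was compared with a scrambled control in the embryonic mouse cortex, using 6 of the 9 RNA-seq libraries of the series. The 3 libraries labelled sh-Gpc2 were set against the 3 labelled sh-NT, and 26881 genes of the 78275 gene IDs in the count table had enough reads to be tested. All embryos were wild type. A plasmid carrying mCherry and a microRNA-embedded hairpin (shmiRNA) was delivered at E14.5 by in utero electroporation, which reaches dividing cells that line the brain ventricle. The hairpin was directed against Gpc2 in sh-Gpc2 and was a scramble in sh-NT, and every group carried mCherry. Forebrain cells positive for mCherry were sorted 48 h later, at E16.5, and the labels call them progenitors and neurons of the cortex. The remaining 3 libraries carried a hairpin against Gpc4 and stayed out of the fit. Libraries are named by the column numbers of the table, 1, 2 and 4 in both groups. The labels do not state separate litters for the 3 libraries of a group, so a p-value here covers just the spread between the libraries, which may be technical.

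Glypicans are proteoglycans held at the outer face of the cell membrane by a lipid anchor and decorated with heparan sulfate, a sulfated sugar chain that binds growth factors and guidance proteins. Gpc2, also called cerebroglycan, is known from developing neurons, where it appears around the time of final division and axon growth and is a receptor for midkine. Heparan sulfate is also a cofactor of FGF receptors and of Slit-Robo and midkine signalling, and so genes of these pathways were followed here.

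Total counts were 48045603 to 64186976 reads in sh-Gpc2 and 58950935 to 62004280 in sh-NT. sh-Gpc2 library 4 stood apart from the other 5. It scored 46.8 on the first principal component, which held 64.8% of the variance, against -16.7 to -2.92 for the others. sh-Gpc2 library 2 stood apart on the second component (20.4% of the variance), at -23.9 against -1.02 to 15.2. sh-Gpc2 libraries 1 and 2 correlated better with the sh-NT libraries (mean r 0.990 and 0.982, across genes, which are not independent) than with their own group (0.956 and 0.954). The cortical identity of the cells was plain in all 6 libraries. Pax6, a transcription factor of radial glia, the stem cells of the cortex, lay between 138 and 176 CPM (read counts scaled to the library total). Eomes, of intermediate progenitors, lay between 79.0 and 100.4 CPM, and Neurod2, of newborn neurons, between 320 and 483 CPM. Transcripts of microglia, the brain's macrophages, were present too. Csf1r, their growth factor receptor, lay between 67.3 and 260 CPM. Endothelial markers were near 0, with Cdh5 at 0.144 to 0.754 CPM.

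The targeted transcript was lower on average in sh-Gpc2, but the groups overlapped. Gpc2 is a protein-coding gene on the minus strand of chromosome 5 (138273655 to 138280005 in GRCm38, ENSMUSG00000029510). It was at 197, 205 and 160 CPM in sh-NT libraries 1, 2 and 4. The level was 165, 144 and 80.7 CPM in sh-Gpc2 libraries 1, 2 and 4. Only sh-Gpc2 libraries 2 and 4 were below all controls, and library 1 was above sh-NT library 4. The means were 187 ± 24 and 130 ± 43.9 CPM (SD, n = 3). In edgeR the log2 fold change was -0.53 (SE 0.24), with a 95% interval from -1.09 to 0.04 and an adjusted p of 0.977. The exact permutation p (two-sided) was 0.2, where 3 against 3 libraries cannot go below 0.1. Without sh-Gpc2 library 4 the log2 fold change was -0.27. In GENCODE M21, 55.6% of the exonic bases of Gpc2 also lie in exons of Gm43720, a predicted gene on the same strand. The assignment of reads in shared exons was not given in the sources used here. Gm43720, looked up after its overlap was seen, was at 193, 199 and 163 CPM in sh-NT and 164, 140 and 95.8 CPM in sh-Gpc2. In bulk RNA, fewer cells of a type and less transcript per cell cannot be told apart.

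Of the 5 other glypicans, none passed the test. Gpc4 (GRCm38 chromosome X, 52053021 to 52165252, minus strand), known from progenitors of the nervous system, was at 162, 186 and 174 CPM in sh-NT and at 143, 215 and 117 CPM in sh-Gpc2. Its sh-Gpc2 libraries lay both above and below the controls. The log2 fold change was -0.14 (SE 0.21), with a 95% interval from -0.61 to 0.34 and an exact permutation p of 0.6. It was 0.045 when sh-Gpc2 library 4 was left out. Gpc1 was at 46.0, 46.8 and 48.5 CPM in sh-NT and at 44.9, 45.9 and 30.9 CPM in sh-Gpc2. Its groups did not overlap, with sh-Gpc2 libraries 1 and 2 just below the lowest control and library 4 far below it. The log2 fold change was -0.21 (SE 0.16), and -0.05 without sh-Gpc2 library 4. Gpc3, Gpc5 and Gpc6 overlapped.

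**Figure D1:**
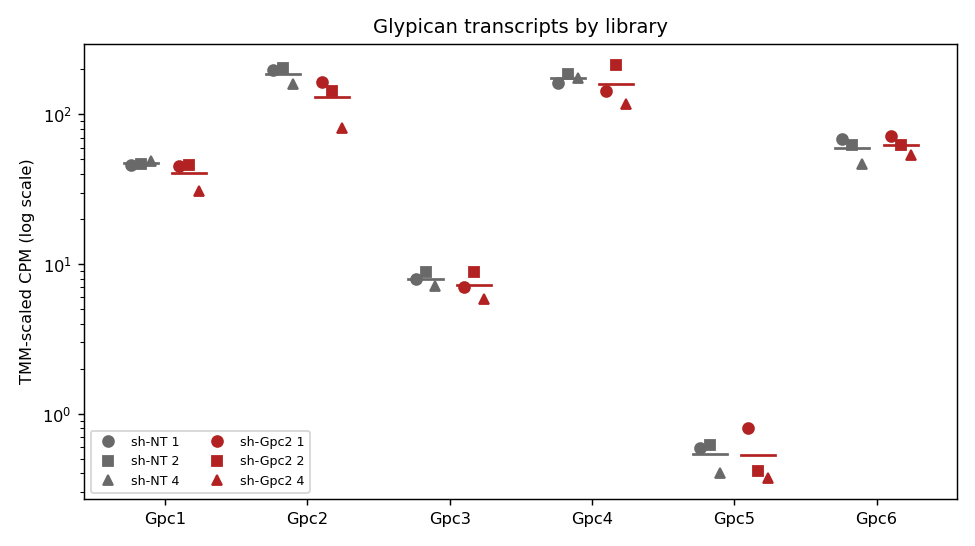
Level of each of the 6 glypican transcripts in TMM-scaled CPM (log axis) in the 3 sh-NT libraries (grey) and the 3 sh-Gpc2 libraries (red), with horizontal lines at the group means and symbols for library numbers 1, 2 and 4. Gpc2 is at 80.7 CPM in sh-Gpc2 library 4 and at 165 CPM in library 1, which overlaps the controls, and library 4 is the lowest of the sh-Gpc2 libraries for all 6 genes.

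Across all genes, none passed an adjusted p of 0.05 in edgeR (0% of 26881, smallest adjusted p 0.977). At an unadjusted p under 0.05, 392 genes were higher (1.46%) and 208 lower (0.774%), 2.23% of those tested. limma voom with sample weights also called 0 genes, with 363 higher and 245 lower at that unadjusted threshold. The DESeq2 Wald test called 2 genes, Hspa1a and the predicted gene Gm20481, with 281 higher and 182 lower at the unadjusted threshold. What follows is therefore a description of genes whose 3 sh-Gpc2 libraries all lay above, or all below, the 3 sh-NT libraries. Over all tested genes this held for 1026 that were higher (3.82%) and 1057 that were lower (3.93%). Among the 11371 genes with a mean of at least 10 CPM it held for 227 higher (2%) and 500 lower (4.4%). The median log2 fold change of all tested genes was 0.01, and 53% were above 0.

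Chaperone, stress and immediate early genes were among the genes with the smallest p on the higher side, beside others described further on. Heat shock proteins are chaperones that refold damaged proteins in the cytosol, and the heat shock factor induces them through repeats of the motif GAANNTTC. Hspa5 (BiP) is the main chaperone of the endoplasmic reticulum, induced when unfolded proteins gather there. Immediate early genes such as Fos encode short-lived factors transcribed within minutes of a stimulus, growth factors and cell handling among them. To show where the known motifs lie, the 250 bases before the RefSeq start are given for 4 of these genes (GRCm38.p6, 5′ to 3′ on the gene's strand). Capitals mark GAANNTTC in Hspa1a (chr17:34972157-34972406, minus strand) and Hspa1b (chr17:34959239-34959488, minus strand). They mark the endoplasmic reticulum stress element (CCAAT and CCACG with 9 bases between) in Hspa5 (chr2:34771840-34772089, plus strand) and the cyclic AMP response element TGACGTCA in Dusp1 (chr17:26508473-26508722, minus strand).
Hspa1a: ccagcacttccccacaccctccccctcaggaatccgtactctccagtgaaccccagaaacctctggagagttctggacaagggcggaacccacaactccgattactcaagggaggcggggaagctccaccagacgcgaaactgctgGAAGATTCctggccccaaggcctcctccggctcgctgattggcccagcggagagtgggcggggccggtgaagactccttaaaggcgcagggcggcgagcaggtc
Hspa1b: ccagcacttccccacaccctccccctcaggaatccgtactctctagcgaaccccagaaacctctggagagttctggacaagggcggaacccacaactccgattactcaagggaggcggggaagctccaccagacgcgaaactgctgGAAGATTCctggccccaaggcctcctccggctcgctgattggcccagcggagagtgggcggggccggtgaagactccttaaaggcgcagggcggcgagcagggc
Hspa5: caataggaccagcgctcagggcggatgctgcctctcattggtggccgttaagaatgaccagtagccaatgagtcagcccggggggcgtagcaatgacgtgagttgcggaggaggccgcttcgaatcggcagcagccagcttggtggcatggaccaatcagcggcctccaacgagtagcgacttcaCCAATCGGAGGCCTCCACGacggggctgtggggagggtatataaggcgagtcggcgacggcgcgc
Dusp1: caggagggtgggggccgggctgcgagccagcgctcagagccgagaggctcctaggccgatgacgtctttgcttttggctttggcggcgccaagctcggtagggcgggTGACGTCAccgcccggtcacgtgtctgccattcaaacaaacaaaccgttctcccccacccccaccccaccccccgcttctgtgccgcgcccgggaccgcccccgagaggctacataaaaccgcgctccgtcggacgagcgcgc
Hspa1a and Hspa1b differed at 3 of these 250 positions (C44T, T47C and T249G, Hspa1a first, counted from the first printed base). The GAANNTTC match began 104 bases before the start in both. On either strand, GAANNTTC was in 6.69% of all 32851 RefSeq promoters of this length. It was in 7 of the 21 tested genes of the heat shock list that had a promoter in the table: Dnaja1, Fkbp4, Hspa1a, Hspa1b, Hspb1, Hspd1 and Hspe1. Among the 12834 tested genes with a promoter in the table, 6.31% held it. The endoplasmic reticulum stress element was in 0.113% of all promoters, in 0.171% of tested genes and in 3 of 22 endoplasmic reticulum stress genes (Creld2, Hsp90b1 and Hspa5). TGACGTCA was in 1.55% of all promoters, in 2.84% of tested genes and in 3 of 24 immediate early genes (Btg2, Dusp1 and Maff).

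Hspa1a, which encodes the inducible Hsp70 chaperone, had the smallest p of the named genes. It was at 12.1, 9.34 and 12.9 CPM in sh-NT and at 50.9, 32.2 and 28.8 CPM in sh-Gpc2. All 3 sh-Gpc2 libraries were far above the highest control. The ratio was 3.25 (log2 fold change 1.70, SE 0.24, interval 1.15 to 2.25), with an unadjusted p of 9.8e-05 and an adjusted p of 0.977 in edgeR, and 7.0e-07 adjusted in DESeq2. Hspa1b, a second copy of the gene close by, was at 0.587, 0.384 and 0.719 CPM in sh-NT and at 2.72, 1.23 and 1.63 CPM in sh-Gpc2, a log2 ratio of 1.72 (SE 0.36). The copies share 47.1% of the 100-base windows of Hspa1a transcripts, so reads could be assigned to either or to neither. Gm20481, called by DESeq2 beside it, lies on the opposite strand and covers 19.0% of the exonic bases of Hspa1a, and reads of this pair cannot be separated without strand.

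The cytosolic heat shock list, which includes Hspa1a and Hspa1b, lay mostly in the same direction. Most of its differences were smaller than that of Hspa1a, but that of Hspb1 was as large. Of 26 tested members 23 were above 0 and 3 below (Cryab, Hsf1 and Hsf2), with a median log2 fold change of 0.18 against 0.01 for all genes, and 0 passed the adjusted test. Higher without overlap were 6 (23.1%, against 3.82% of all genes), Hspa1a and Hspa1b among them, and 0 were lower. Hspb1, the small chaperone Hsp27, was at 0.317, 0.133 and 0.175 CPM in sh-NT and 0.61, 0.416 and 1.11 CPM in sh-Gpc2, all low levels (log2 fold change 1.74, SE 0.46). Hspe1, the mitochondrial co-chaperonin Hsp10, was at 93.5, 91.9 and 87.9 CPM in sh-NT and at 95.8, 114 and 121 CPM in sh-Gpc2. Dnajb4 and Dnaja1, co-chaperones of Hsp70, had log2 fold changes of 0.32 (SE 0.15) and 0.13 (SE 0.11). The gap between groups was narrow for Dnaja1, at 418 CPM in the highest control and 421 CPM in the lowest sh-Gpc2 library. Hspa8, a constitutive chaperone, and Hsp90aa1 overlapped. Hspa8 was at 1240, 1225 and 1408 CPM in sh-NT and at 1221, 1398 and 1779 CPM in sh-Gpc2, and Hsp90aa1 had a log2 fold change of 0.35 (SE 0.19). Without sh-Gpc2 library 4 the list again had 23 members above 0 and 3 below, and without library 2 it had 20 and 6.

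Genes of the endoplasmic reticulum stress response and targets of ATF4, its transcription factor, were mostly above 0. The mean centred log2 CPM of this list was -0.05, 0.16 and 0.15 in sh-Gpc2 libraries 1, 2 and 4. It was -0.14, -0.03 and -0.10 in sh-NT, so sh-Gpc2 library 1 lay among the controls. Of 24 tested, 20 were above 0 and 4 below (median 0.13), and 0 passed the adjusted test. Higher without overlap were 4 (16.7%, against 3.82% of all genes), and 0 were lower. Hspa5 was at 974, 1024 and 1228 CPM in sh-NT and at 1401, 1415 and 1573 CPM in sh-Gpc2. The 3 sh-Gpc2 libraries were close together and above all controls, a log2 fold change of 0.44 (SE 0.12, unadjusted p 0.0066). Ddit3 (CHOP), a factor of prolonged stress, was at 25.5, 24.2 and 22.0 CPM in sh-NT and at 29.3, 27.9 and 31.3 CPM in sh-Gpc2. Herpud1, which helps degrade proteins of the endoplasmic reticulum, and Slc3a2, an amino acid transporter subunit, had log2 fold changes of 0.28 (SE 0.12) and 0.17 (SE 0.10) without overlap. Ppp1r15a (GADD34), a phosphatase subunit that restores translation after stress, is not counted among the 4 without overlap. It was at 109, 105 and 114 CPM in sh-NT and at 140, 147 and 151 CPM in sh-Gpc2 (log2 ratio 0.41, SE 0.09). Slc7a11, a cystine transporter, had the largest value of the list and overlapped. It was at 2.46, 9.55 and 20.7 CPM in sh-Gpc2 and at 3.01 to 3.97 CPM in sh-NT. The 4 members below 0 became 10 without sh-Gpc2 library 2 and 2 without library 4.

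**Figure D2:**
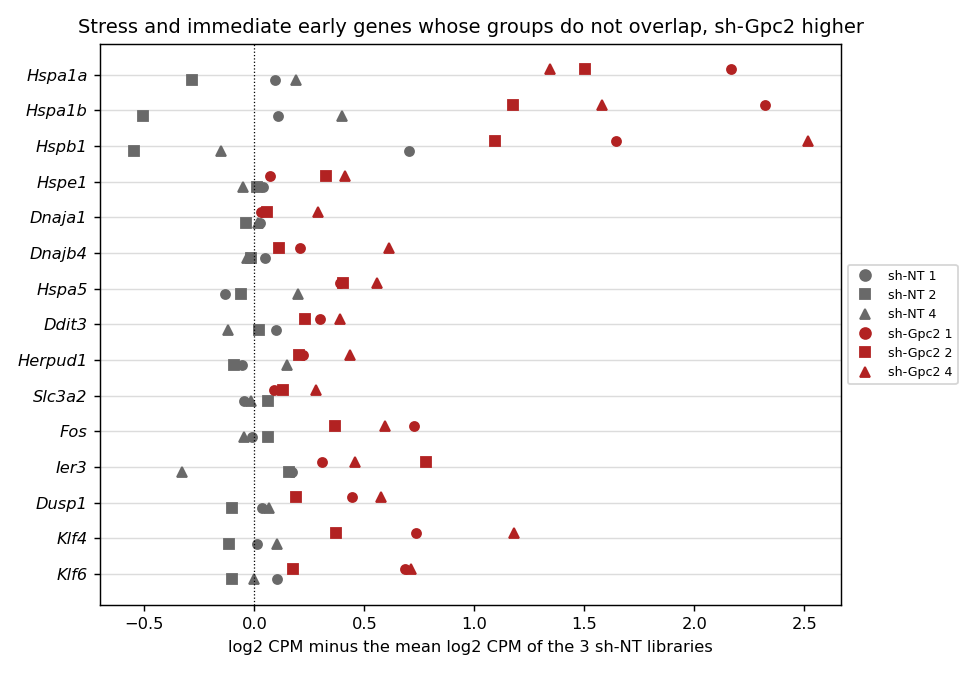
Log2 CPM of the 15 heat shock, endoplasmic reticulum stress and immediate early genes that were higher without overlap, each centred on its mean over the 3 sh-NT libraries (grey, sh-NT; red, sh-Gpc2; symbols give library numbers). Hspa1a, Hspa1b and Hspb1 are more than 1 log2 unit above the control mean in all 3 sh-Gpc2 libraries, while Dnaja1 and Slc3a2 clear the controls narrowly.

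Immediate early genes had a median log2 fold change of 0.31, and of 0.19 without sh-Gpc2 library 1. The mean centred log2 CPM of the list was 0.35 in that library, -0.04 and 0.03 in sh-Gpc2 libraries 2 and 4, and -0.16, -0.02 and -0.17 in sh-NT, so library 2 lay among the controls. Of 29 tested, 24 were above 0 and 5 below, and 0 passed the adjusted test. Higher without overlap were 5 (17.2%, against 3.82% of all genes), and 1 was lower (3.45%, against 3.93%). Fos, a subunit of the AP-1 transcription factor, was at 322, 339 and 314 CPM in sh-NT and at 537, 419 and 490 CPM in sh-Gpc2, a log2 fold change of 0.57 (SE 0.12, unadjusted p 0.0012). Dusp1, a phosphatase that switches off MAP kinases, was at 322, 293 and 329 CPM in sh-NT and at 428, 359 and 469 CPM in sh-Gpc2. Klf6, a zinc finger factor, was at 180, 156 and 167 CPM in sh-NT and at 269, 189 and 275 CPM in sh-Gpc2, with library 2 nearest the controls. Klf4 and Ier3 were higher by 0.79 (SE 0.21) and 0.51 (SE 0.19) on the log2 scale. Egr1, a factor often induced together with Fos, lay on the other side. It was at 399, 463 and 379 CPM in sh-NT and at 357, 288 and 209 CPM in sh-Gpc2, lower in all 3 libraries (log2 fold change -0.54, SE 0.19). Jun (0.39, SE 0.20), Junb (0.18, SE 0.30) and Ier2 (-0.01, SE 0.17) overlapped.

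Other genes on the higher side include the cell cycle inhibitor Cdkn1a and genes of BMP response and inflammation. Cdkn1a (p21), the inhibitor of cyclin-dependent kinases induced by p53, was at 24, 25.3 and 24.8 CPM in sh-NT and at 37.4, 30.5 and 43.6 CPM in sh-Gpc2. All 3 sh-Gpc2 libraries were above controls that lay close together (log2 fold change 0.59, SE 0.15). In the list of G1 cyclins and cell cycle exit, 3 of 17 genes were higher without overlap (17.6%, against 3.82% of all genes). They were Cdkn1a, Cdkn2d (0.23) and E2f1 (0.29). Lower without overlap was 1 (5.88%, against 3.93%), Cdkn1b. Stambpl1, a deubiquitinase, was at 8.49 to 10.7 CPM in sh-NT and 12.9 to 14.3 CPM in sh-Gpc2 (0.49, SE 0.14). Gdf15, a secreted stress factor, was at 1.58 to 1.96 CPM in sh-NT and 2.30 to 3.78 CPM in sh-Gpc2. The p53 list as a whole was level, with 11 members above 0 and 13 below, a median of -0.01, and Mdm2, a direct p53 target, at -0.01 (SE 0.12). Id1, which blocks differentiation factors and is induced by BMP, was at 29.8, 30.2 and 28.9 CPM in sh-NT and at 40.0, 46.4 and 37.9 CPM in sh-Gpc2 (log2 ratio 0.48, SE 0.12). Its relative Id3 was at 3.08, 4.12 and 3.77 CPM in sh-NT and at 7.47, 5.50 and 5.12 CPM in sh-Gpc2. The ligand Bmp2 was at 0.523, 0.517 and 0.456 CPM in sh-NT and at 1.27, 0.688 and 0.557 CPM in sh-Gpc2. Its log2 fold change of 0.75 (SE 0.33) was 0.32 without sh-Gpc2 library 1. These were 3 of 15 BMP genes higher without overlap (20%, against 3.82% of all genes), with 0 lower. Of the 15, 9 were above 0 and 6 below. List means were 0.177, 0.018 and -0.025 in sh-Gpc2 libraries 1, 2 and 4, and -0.093 to -0.022 in sh-NT, so library 4 lay among the controls. Smad6 and Smad7, feedback inhibitors that BMP induces, had log2 fold changes of -0.31 (SE 0.21) and -0.01 (SE 0.21).

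Several of the higher genes are known from myeloid cells. Hmox1, heme oxygenase, was at 65.6, 74.0 and 73.9 CPM in sh-NT and at 95.4, 119 and 143 CPM in sh-Gpc2 (log2 ratio 0.74, SE 0.15). Cd14, a receptor for bacterial lipid, was at 20.1, 21.4 and 27.9 CPM in sh-NT and at 30.0, 44.8 and 37.9 CPM in sh-Gpc2. Il1b, an inflammatory cytokine, was at 5.11, 5.37 and 4.60 CPM in sh-NT and at 8.90, 9.07 and 7.16 CPM in sh-Gpc2. Ccrl2, Srgn, Lilrb4a and Ptgs2 were also higher without overlap, with log2 fold changes of 0.95, 0.56, 0.47 and 0.77. The summed level of the 17 microglia markers was 1164, 1278 and 1802 CPM in sh-NT and 1992, 771 and 2144 CPM in sh-Gpc2. It was above all controls in sh-Gpc2 libraries 1 and 4 and below all of them in library 2. Of the 17 markers 15 had a log2 fold change above 0 (median 0.31) and 0 were free of overlap. Without sh-Gpc2 library 2 all 17 were above 0, 10 of them without overlap (11.2% of all genes in that fit), and the median was 0.62. Without library 4, 10 were above 0 and the median was 0.017. Csf1r and Cx3cr1, which define microglia, had log2 fold changes of 0.00 (SE 0.40) and 0.02 (SE 0.43). The part of microglial RNA in these genes was not tested. Of 26 interferon response genes, 24 were above 0 (median 0.39) and 0 were free of overlap. The median was 0.25 without sh-Gpc2 library 4 and 0.64 without sh-NT library 2. Rsad2, the antiviral protein viperin, was at 9.28, 11.7 and 5.66 CPM in sh-NT and at 17.8, 6.02 and 25.8 CPM in sh-Gpc2, with library 2 among the controls (a log2 difference of 0.90, SE 0.48). Isg15, a ubiquitin-like modifier, was at 13.3, 26.9 and 9.94 CPM in sh-NT and at 14.1, 36.0 and 24.8 CPM in sh-Gpc2 (0.58, SE 0.42), with library 2 the highest. The log2 fold changes of Ifit1, Ifit3 and the transcription factor Irf7 were 0.60 (SE 0.37), 0.59 (SE 0.42) and 0.23 (SE 0.27), and the groups overlapped for all 5 genes.

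In sterol synthesis, 4 of 20 tested genes were higher without overlap (20%, against 3.82% of all genes) and 1 was lower (5%, against 3.93%). The list median was 0.04, with 0 calls. The median was -0.027 without sh-Gpc2 library 1 and 0.13 without library 4. Hmgcs1, which starts the pathway, was at 412, 442 and 482 CPM in sh-NT and at 548, 510 and 530 CPM in sh-Gpc2 (log2 ratio 0.25, SE 0.10). Msmo1, Idi1 and Cyp51, later enzymes, had log2 fold changes of 0.29, 0.29 and 0.16. Acaca, of fatty acid synthesis, was lower (-0.23, SE 0.13).

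**Figure D3:**
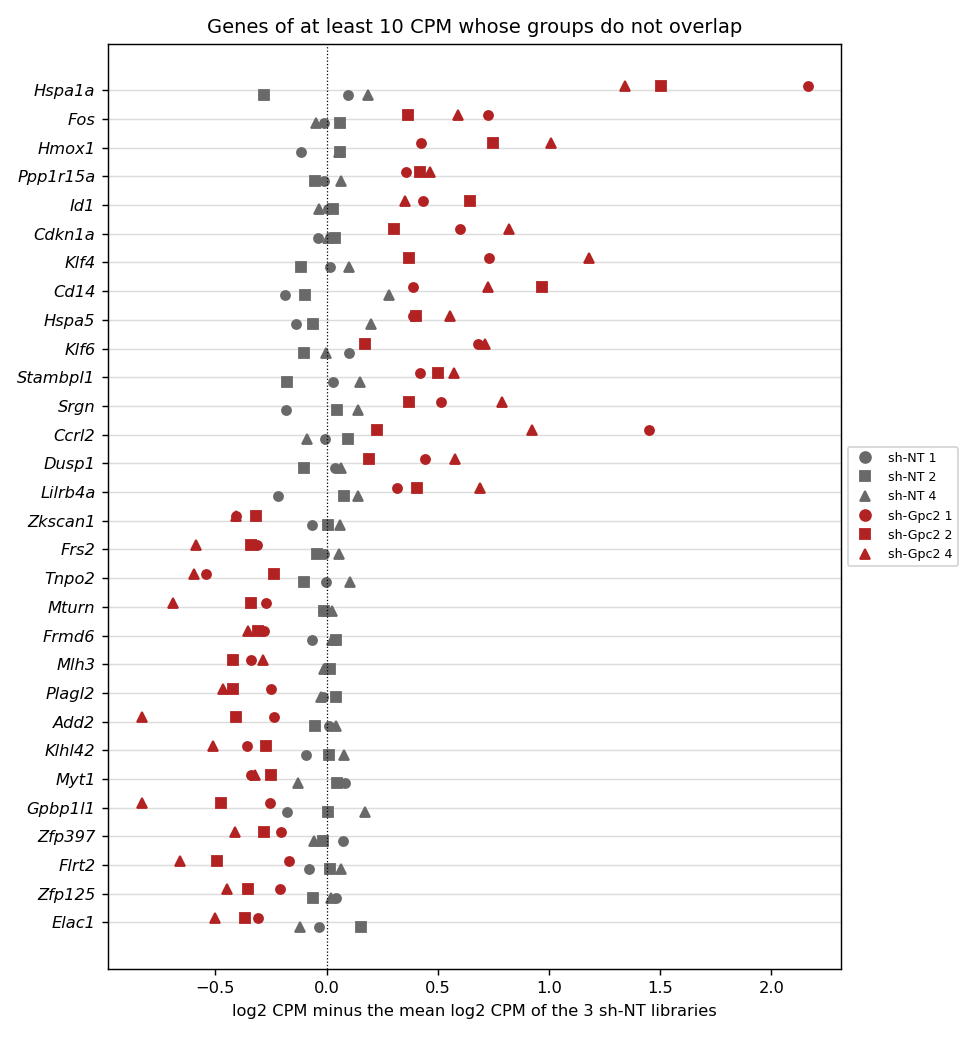
Log2 CPM of the 15 higher and 15 lower genes of at least 10 CPM without overlap and with the smallest p, each centred on its mean over the 3 sh-NT libraries (grey, sh-NT; red, sh-Gpc2; symbols give library numbers). Hspa1a, with a log2 fold change of 1.70, lies farthest from the controls. The lower genes lie within 1 log2 unit below them, with sh-Gpc2 library 4 lowest for all but Zkscan1, Mlh3 and Myt1.

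The 15 genes named on the lower side had smaller differences, with log2 fold changes from -0.51 to -0.30, and were of mixed function. Zkscan1, a zinc finger protein, had the smallest p. It was at 134, 141 and 147 CPM in sh-NT and at 106, 113 and 106 CPM in sh-Gpc2, with all 3 sh-Gpc2 libraries alike (log2 fold change -0.38, SE 0.09, unadjusted p 0.0039). Mturn, a regulator of neural progenitor differentiation, was at 225, 226 and 232 CPM in sh-NT and at 189, 180 and 141 CPM in sh-Gpc2. Myt1, a zinc finger factor that promotes neuronal differentiation, was at 119, 116 and 102 CPM in sh-NT and at 88.5, 94.2 and 89.4 CPM in sh-Gpc2 (log2 ratio -0.31, SE 0.10). Add2, an adducin of the membrane skeleton, had a log2 fold change of -0.47 (SE 0.15). The mismatch repair gene Mlh3 was at 25.1 to 25.6 CPM in sh-NT and 18.9 to 20.8 CPM in sh-Gpc2, with narrow groups on both sides. Tnpo2 (nuclear import), Frmd6 (a Hippo pathway scaffold), Plagl2, Klhl42, Gpbp1l1, Zfp397, Zfp125 and Elac1 made up the rest with Frs2 and Flrt2. Of the sh-Gpc2 libraries, library 4 was the lowest for all 15 but Zkscan1, Mlh3 and Myt1. Without it the log2 fold change was -0.31 for Add2, -0.30 for Mturn and -0.32 for Frs2, and -0.38 for Mlh3.

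Frs2 and Flrt2 are both linked to FGF receptors, which need heparan sulfate. Frs2 is the adaptor that carries the signal of FGF receptors to the ERK kinases, and it was at 61.3, 60.0 and 64.3 CPM in sh-NT and at 49.7, 48.8 and 41.2 CPM in sh-Gpc2. Each sh-Gpc2 library was below the lowest control with a clear gap (log2 fold change -0.41, SE 0.11, unadjusted p 0.0069). Its relative Frs3 was at 2.65 to 2.89 CPM in sh-NT and at 1.59 to 2.42 CPM in sh-Gpc2. Of 19 genes of the FGF list 14 were below 0 (median -0.08), and 0 passed the adjusted test. Frs2 and Frs3 were lower without overlap (10.5%, against 3.93% of all genes), and 0 were higher. Most of the list's difference lay in sh-Gpc2 library 4. List means were 0.01, 0.12 and -0.36 in sh-Gpc2 libraries 1, 2 and 4, and 0.08, 0.12 and 0.03 in sh-NT. Without library 4 the median was -0.027, with 12 below 0 and 7 above. The receptors Fgfr1 and Fgfr2 had log2 fold changes of 0.08 (SE 0.10) and -0.08 (SE 0.11). Readouts of ERK activity went both ways. Dusp6 was at 37.7, 36.0 and 43.7 CPM in sh-NT and at 55.7, 37.4 and 68.2 CPM in sh-Gpc2 (0.46, SE 0.21), and Dusp4 was at -0.55 (SE 0.37), low only in sh-Gpc2 library 4 at 39.5 CPM.

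Flrt2 is an adhesion protein that repels migrating neurons through Unc5 receptors. It was at 40.7, 43.4 and 45.0 CPM in sh-NT and at 38.2, 30.6 and 27.3 CPM in sh-Gpc2 (log2 ratio -0.43, SE 0.15). Of 39 ephrin, Slit-Robo, netrin and Flrt genes, 28 were below 0 (median -0.14). Lower without overlap were 5 (12.8%, against 3.93% of all genes), 0 were higher, and 0 passed the adjusted test. Unc5c and Dcc, both netrin receptors, were among the 5. Unc5c was at 3.14, 2.65 and 3.46 CPM in sh-NT and at 2.44, 2.50 and 2.41 CPM in sh-Gpc2, and Dcc was at 65.9 to 68.0 CPM in sh-NT and 60.0 to 63.6 CPM in sh-Gpc2. The receptors Epha10 and Epha2 were below 1.2 CPM throughout. Slit2, a repellent bound by heparan sulfate, had a log2 fold change of -0.29 (SE 0.14) and its receptor Robo1 of -0.17 (SE 0.12), both with overlap. Without sh-Gpc2 library 4 the members below 0 were 30 and the median was -0.07.

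The semaphorins, plexins and neuropilins, ligands and receptors that steer axons, had 26 of 31 members below 0 and a median of -0.23. Sema4b and Sema6d were lower without overlap and 0 were higher. That is 6.45% lower, near the 3.93% of all genes and the 4.4% of genes of at least 10 CPM. Sema6d was at 149, 156 and 148 CPM in sh-NT and at 143, 134 and 106 CPM in sh-Gpc2. Plxna2, a semaphorin receptor, was at 727, 734 and 627 CPM in sh-NT and at 684, 563 and 439 CPM in sh-Gpc2 (-0.31, SE 0.17), and library 1 overlapped the controls. Most of the list's difference lay in sh-Gpc2 library 4. The mean centred log2 CPM of its members was 0.10, 0.21 and 0.08 in sh-NT and 0.17, -0.07 and -0.48 in sh-Gpc2. Without library 4 the list median was -0.09, with 22 below 0. For integrins and matrix genes 22 of 29 were below 0 (median -0.14, and -0.064 without library 4). Lama4 and Lamb1, laminin chains, were lower without overlap, and Lamb1 was at 19.8, 20.6 and 21.4 CPM in sh-NT and 19.1, 15.7 and 10.2 CPM in sh-Gpc2.

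The same library carried the low values of the Notch and Hedgehog lists. Of 25 Notch genes 19 were below 0 (median -0.17), and list means were 0.10, 0.17 and -0.55 in sh-Gpc2 libraries 1, 2 and 4. Without library 4, 14 were below 0 and 11 above. Rbpj, the transcription factor of the pathway, was at 114 to 119 CPM in sh-NT and 103 to 110 CPM in sh-Gpc2, and its cofactor Maml1 had a log2 fold change of -0.16 (SE 0.13), both without overlap. The targets parted. Hey1 was at 46.0, 47.7 and 43.0 CPM in sh-NT and at 52.3, 75.1 and 51.1 CPM in sh-Gpc2, higher in all 3 libraries (0.39, SE 0.16). Hes5 was at 279, 361 and 392 CPM in sh-NT and at 503, 827 and 207 CPM in sh-Gpc2, the highest of all in library 2 and the lowest in library 4. Hes1 was at 11.8 CPM in library 4 and at 32.1 to 41.7 CPM in the other 5. The 12 Hedgehog genes had a median of -0.20 and overlapped throughout, and the median was 0.015 without library 4.

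Apart from Gpc1, the tested genes of the lists that make and carry heparan sulfate overlapped between groups. The 10 other core proteins, syndecans, agrin and perlecan among them, had a median of -0.29 (7 below 0), and of -0.042 without sh-Gpc2 library 4. Agrn was at 129, 165 and 125 CPM in sh-NT and at 142, 129 and 74.4 CPM in sh-Gpc2. Chain synthesis genes had a median of -0.05 and sulfation genes of 0.08. For midkine, a ligand of Gpc2, Mdk was at 300, 316 and 422 CPM in sh-NT and at 302, 404 and 375 CPM in sh-Gpc2 (0.06, SE 0.16, 95% interval -0.32 to 0.44). The related Ptn (0.12, SE 0.12) and their receptor Ptprz1 (-0.04, SE 0.10) overlapped too.

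Markers of the cortical lineage showed small differences. Of 22 genes of newborn and migrating neurons 18 were below 0 (median -0.12), and 0 passed the adjusted test. Lower without overlap were 3 (13.6%, against 3.93% of all genes), and 0 were higher. Neurod2, a neuronal differentiation factor, was at 381, 388 and 483 CPM in sh-NT and at 352, 320 and 380 CPM in sh-Gpc2 (log2 ratio -0.25, SE 0.13). Library 4 of sh-Gpc2 was just below the lowest control. Dclk1, a microtubule protein of migrating neurons, was at 355 to 366 CPM in sh-NT and 302 to 334 CPM in sh-Gpc2, and Dcc was the third. Dcx (-0.14, SE 0.16) and Tubb3 (-0.02, SE 0.09) overlapped. Of 15 upper-layer genes 13 were below 0 (median -0.06). Rorb was lower without overlap, at 40.8 to 43.3 CPM in sh-NT and 35.2 to 39.4 CPM in sh-Gpc2. List means of upper-layer genes were 0.03, -0.23 and 0.10 in sh-Gpc2 libraries 1, 2 and 4, and -0.02, -0.06 and 0.18 in sh-NT. Without sh-Gpc2 library 2, 9 of them were below 0 (median -0.031), and without library 4, 12 were (median -0.16). Without sh-Gpc2 library 4 the newborn neuron list had 19 members below 0 and 7 lower without overlap, against 7.13% of all genes in that fit, with a median of -0.15. Without library 2 it had 16 below 0, 3 lower without overlap against 10.4% of all genes, and a median of -0.052.

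Genes of the S, G2 and M phases followed sh-Gpc2 library 2. Of 30 genes of the G2 and M phases, 29 were above 0 (median 0.16), and 0 were free of overlap. Their list mean was 0.39 in library 2, -0.16 and -0.06 in libraries 1 and 4, and -0.12 to 0.04 in sh-NT. Top2a was at 596, 567 and 538 CPM in sh-NT and at 510, 795 and 516 CPM in sh-Gpc2. Without library 2 only 9 of the 30 were above 0. The S phase list had the same shape, with 24 of 30 above 0, and 7 without library 2. Radial glia markers had 16 of 25 above 0 (median 0.07), and Pax6 (0.08, SE 0.11) and Sox2 (0.19, SE 0.13) overlapped. Their list means were 0.01, 0.29 and -0.24 in sh-Gpc2 libraries 1, 2 and 4, and -0.08 to 0.07 in sh-NT. Hopx was higher without overlap at levels of 1.01 CPM and below. Of 18 intermediate progenitor genes 14 were below 0 (median -0.07), and Eomes overlapped (0.07, SE 0.12). Means of this list were 0.01, 0.06 and -0.37 in sh-Gpc2 libraries 1, 2 and 4, and 0.04 to 0.13 in sh-NT. Cdkn1b, an inhibitor of the cell cycle, was lower without overlap but narrowly (-0.12, SE 0.10), at 102 CPM in both the lowest control and the highest sh-Gpc2 library.

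**Figure D4:**
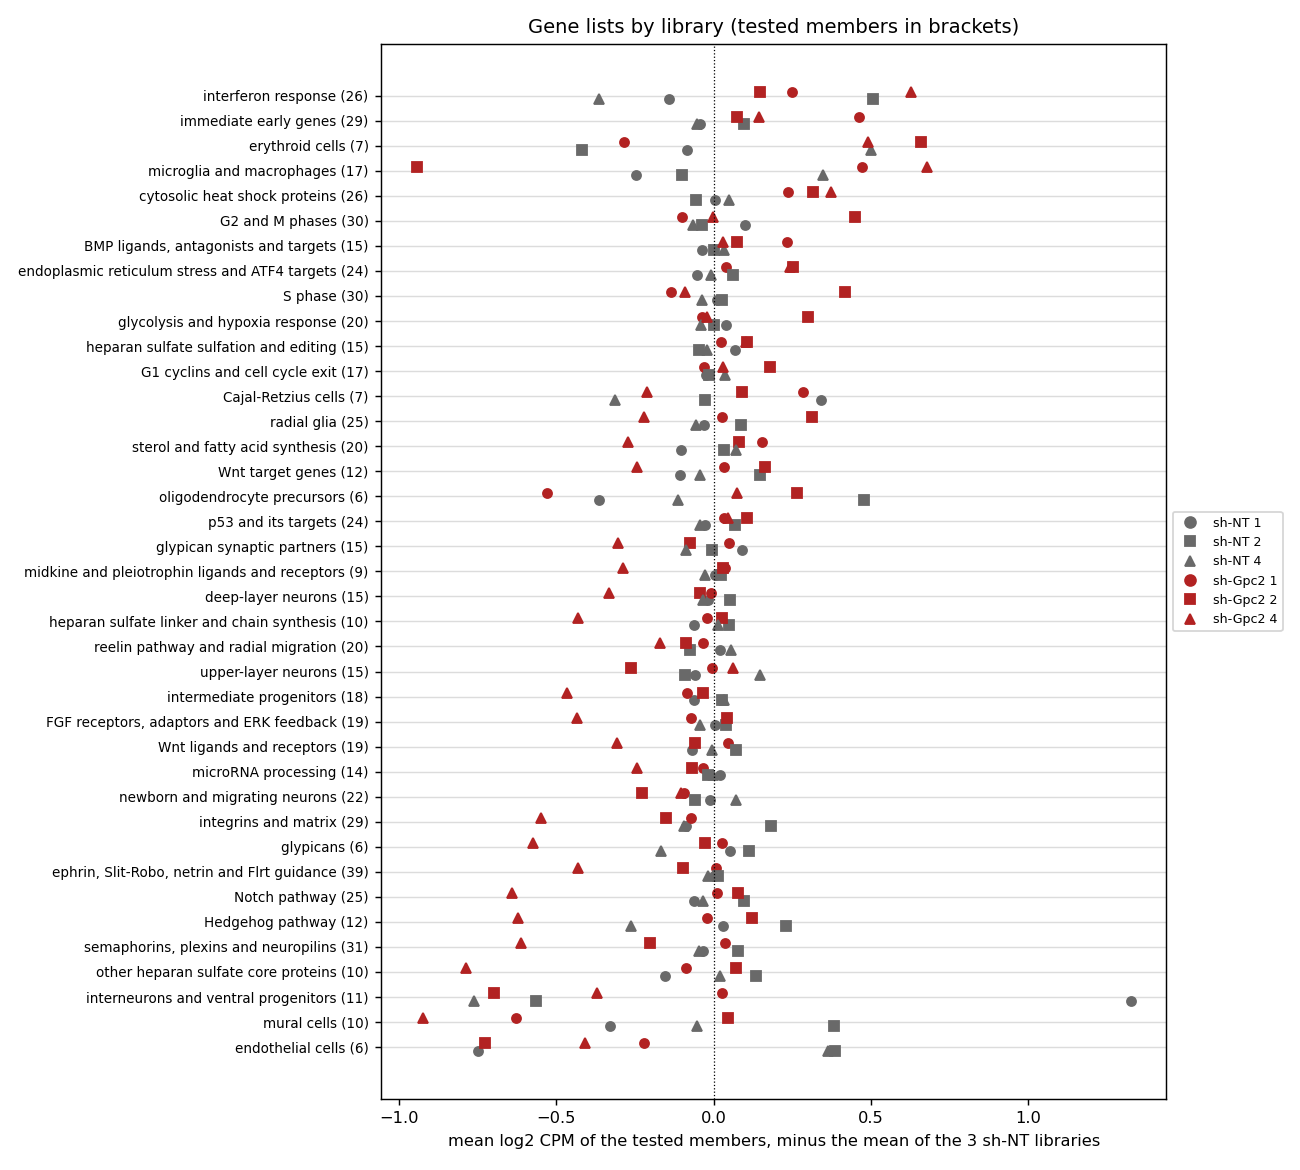
Mean log2 CPM of the tested members of each gene list with at least 5 of them, by library, minus the mean of the 3 sh-NT libraries (grey, sh-NT; red, sh-Gpc2; symbols give library numbers; lists ordered by median log2 fold change). The heat shock list lies above the controls in all 3 sh-Gpc2 libraries, the S phase and G2 and M phase lists in library 2 alone, and the low values of the Notch, Hedgehog, semaphorin and heparan sulfate core lists come mainly from library 4.

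Over all lists, 30 of the 674 tested genes were higher without overlap (4.45%) and 29 lower (4.30%), close to the 3.82% and 3.93% of all genes. Of the 477 list genes of at least 10 CPM, 22 were higher (4.61%) and 17 lower (3.56%). The shares of all genes at that level were 2% and 4.4%. The lists were chosen with earlier results of these data known, so the higher share is a description only. Of markers of other cells, the interneuron list was high in sh-NT library 1 alone (list mean 1.5, against -0.59 to 0.20 in the other 5). Mural genes had 8 of 10 below 0, with Rgs5 at 2.89 to 4.16 CPM in sh-NT and 1.43 to 2.60 CPM in sh-Gpc2.

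The Gpc4 knockdown, which shares the 3 sh-NT libraries, gave values for the same genes when all 9 libraries were scaled together. Gpc2 itself was at 168, 70.3 and 96.6 CPM in sh-Gpc4 libraries 1, 3 and 4, and at 167, 145 and 79.6 CPM in sh-Gpc2. Its log2 fold change over sh-NT was -0.76 with the Gpc4 hairpin and -0.54 with the Gpc2 hairpin, and the direct difference was 0.23 (SE 0.33, adjusted p 0.966 in edgeR). A lower Gpc2 transcript is therefore not shown to be particular to the Gpc2 hairpin. Hspa1a was at 38.3, 23.0 and 10.9 CPM in sh-Gpc4 libraries 1, 3 and 4, and at 51.6, 32.5 and 28.4 CPM in sh-Gpc2. The direct log2 difference of sh-Gpc2 over sh-Gpc4 was 0.64 (SE 0.39, adjusted p 0.966 in edgeR). For Hspa5 it was 0.18 (SE 0.13), for Fos 0.24 (SE 0.16), for Frs2 0.10 and for Flrt2 0.16, each with an adjusted p of 0.966. None of these other differences is shown to be particular to the Gpc2 hairpin.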

How the data were processed

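RNA of the sorted mouse cells went into libraries with a kit for single cells and low input, per the labels' protocols. The values are whole-number read counts for each gene, deposited by the authors, who used featureCounts of Subread and name GRCm38 and mm10, per the submitters' processing notes. No aligner, annotation release, version or strand setting was given in the sources used here. Overlapping and antisense genes therefore cannot be separated. Symbols came from a GENCODE M21 table that matched 51486 of 78275 IDs (65.8%).

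Column names give the group, but their numbers do not match the titled replicates. No pair of libraries within a group agreed to sampling noise (chi-square over its degrees of freedom 7.65 to 81.7). The 6 libraries were fitted alone in R 4.3.3 with edgeR 4.0.16 (default low-count filter, TMM, quasi-likelihood F test, Benjamini-Hochberg over 26881 genes, threshold 0.05). CPM is TMM-scaled, SE is the log2 fold change over the square root of F; 95% intervals take their degrees of freedom from the fit (median 8.05). List means and principal components used log2 CPM with a prior count of 2, the components for genes with a mean log2 CPM above 3. Groups do not overlap where all libraries of 1 group exceed all of the other. DESeq2 1.42.0, limma 3.58.1, other filters and left-out libraries were alternatives, and the edgeR step was tested on simulated data. There it recovered 11.9%, 65.7% and 100% of genes changed by 1.5, 2 and 4 times. Most changes of 1.5 times would thus be missed. The simulated counts were drawn independently and had no shifts of whole libraries, such as those of sh-Gpc2 libraries 2 and 4. Recovery of larger changes in the real libraries is therefore not shown. There Hspa1a, at a ratio of 3.25, had an adjusted p of 0.977 in edgeR. Named genes were Gpc2 and Gpc4, up to 15 non-overlapping genes per direction at 10 CPM or more and 6 at 1 to 10 CPM by smallest p, and key, non-overlapping or extreme members of described lists; predicted genes and 6 sex-linked genes were left out. The members and the 41 gene lists were chosen with earlier results of these data known. Promoters are from RefSeq (GRCm38.p6). At these depths counting error matters mainly for genes below 1 CPM. Not every gene that met this rule is printed, and some are not reported here.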

Additional observations from a re-analysis of the deposited data

How the results depend on the processing

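The count of genes past the adjusted threshold was 0 in edgeR and 2 (Hspa1a and Gm20481) with the DESeq2 Wald test and with no filter on low counts, where the adjusted p of Hspa1a was 7.0e-07 and 0.00925. It was 0 under the 11 other alternatives, including each left-out library. Unadjusted counts of 392 higher and 208 lower became 721 and 591 with no filter and 99 and 94 with more than 5 CPM in at least 3 libraries. They ran from 270 to 1041 and from 77 to 1045 with 1 library left out, the highest without sh-Gpc2 library 2 and library 1, respectively. The 2083 genes without overlap became 3608 with no filter and 898 with more than 5 CPM, and 3373 to 7444 with 1 library left out, where 5 libraries separate more easily by construction. The Gpc2 log2 fold change ran from -0.74 (without sh-Gpc2 library 1) to -0.27 (without library 4), and that of Gpc4 from -0.43 (without sh-Gpc2 library 2) to 0.045 (without library 4).

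The labels do not say whether the column numbers pair the samples, so the main fit left them unpaired. Deviations from the group means correlated at -0.07, 0.48 and 0.46 for numbers 1, 2 and 4. Pairs of unlike number ran from -0.60 to 0.33, so numbers 2 and 4 had the highest values and number 1 did not. With a replicate block by column number 0 genes passed in edgeR. At unadjusted p under 0.05, 472 were higher and 399 lower, and Gpc2 was at -0.58 and Gpc4 at -0.18.

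Median log2 fold changes of these lists moved by more than the spread of the list's own median between libraries of a group, so a list that varies more, such as microglia, can move further and not be among them. The median of heparan sulfate sulfation (0.08) was -0.028 with limma voom, -0.027 with more than 5 CPM, and 0.026 to 0.093 with 1 library left out. That of p53 targets (-0.01) was -0.082 with limma voom. Over left-out libraries the medians ran as follows: BMP ligands, antagonists and targets 0.083 to 0.21, radial glia -0.075 to 0.13, reelin pathway and radial migration -0.072 to -0.00057, endoplasmic reticulum stress and ATF4 targets 0.079 to 0.25, p53 and its targets -0.048 to 0.064, glycolysis and hypoxia response -0.083 to 0.16, G1 cyclins and cell cycle exit 0.00098 to 0.11, interneurons and ventral progenitors -0.84 to 0.32, meningeal cells -0.45 to 0.19. Moves within that spread were as large: microglia 0.017 to 0.62, Hedgehog -0.38 to 0.015, S phase -0.095 to 0.22, G2 and M phases -0.040 to 0.24, oligodendrocyte precursors -0.25 to 0.24 and other heparan sulfate core proteins -0.46 to -0.042.

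Of 91 named genes without overlap 0 changed sign, which their choice largely fixes and is no sign of stability, and 21 moved by over 1.5 times with 1 library left out. Of 49 named genes with overlap, besides Gpc2 and Gpc4, 47 moved by that much and 20 changed sign. With 1 library left out these ran as follows: Eomes -0.031 to 0.13, Csf1r -0.47 to 0.36, Gpc3 -0.33 to 0.0019, Gpc5 -0.44 to 0.18, Gpc6 -0.073 to 0.19, Fkbp4 -0.092 to 0.11, Creld2 -0.11 to 0.23, Btg2 -0.0063 to 0.10, Maff -0.050 to 0.20, Cryab -0.40 to 0.20, Hsf1 -0.18 to 0.095, Junb -0.14 to 0.49, Ier2 -0.13 to 0.18, Mdm2 -0.12 to 0.084, Smad7 -0.16 to 0.16, Cx3cr1 -0.33 to 0.41, Mdk -0.051 to 0.22, Ptprz1 -0.12 to 0.0012, Tubb3 -0.041 to 0.020, Top2a -0.16 to 0.21. Limma voom gave 0.10 for Ier2, -0.33 for Cx3cr1 and 0.0021 for Tubb3. The replicate block gave 0.0028 for Mdm2 and -0.19 for Cx3cr1, no filter -0.011 for Cx3cr1, and more than 5 CPM 0.015 for Csf1r. The counts of list members without sh-Gpc2 library 4 or library 2 were alternatives chosen after seeing the data. The causes were not tested.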

Other observations

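Genes of 1 to 10 CPM without overlap and with the smallest p were named by the same rule. On the higher side Nefl, the light chain of neurofilaments, was at 0.714, 0.634 and 0.824 CPM in sh-NT and at 1.45, 1.63 and 1.34 CPM in sh-Gpc2 (log2 ratio 1.03, SE 0.20), but 32.8% of its exonic bases are shared with Nefm on the opposite strand. Klf5, a zinc finger factor, was at 2.49, 2.97 and 2.37 CPM in sh-NT and at 4.2, 4.45 and 4.37 CPM in sh-Gpc2, with sh-Gpc2 libraries nearly equal. The noncoding AI662270 had a log2 fold change of 0.82 (SE 0.19). On the lower side Cygb, an oxygen-binding globin, was at 7.25, 8.09 and 7.68 CPM in sh-NT and at 6.31, 4.96 and 3.92 CPM in sh-Gpc2. Prcd, which overlaps Cygb on the opposite strand, was at -0.63 (SE 0.21), Slc25a47 at -0.47 (SE 0.16), Syce1l at -0.66 (SE 0.24) and Nfe2l3 at -0.58 (SE 0.21). Mir5114 lies wholly within exons of Scd2, so its value of -0.56 cannot be told from reads of Scd2. All of these had an adjusted p of 0.977 in edgeR.

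Other members of the lists without overlap were few. Dkk1, a secreted Wnt inhibitor, was at 0.0476, 0.1 and 0.0877 CPM in sh-NT and at 0.174, 0.240 and 0.227 CPM in sh-Gpc2, a handful of reads per library (log2 fold change 1.43, SE 0.40). Ntsr1, a receptor of deep-layer neurons, was at 0.872, 1.25 and 1.26 CPM in sh-NT and at 0.714, 0.656 and 0.557 CPM in sh-Gpc2. Nhlh1, a factor of cells leaving the intermediate progenitor state, was at 9.09, 9.11 and 9.75 CPM in sh-NT and at 7.30, 7.90 and 5.28 CPM in sh-Gpc2 (-0.45, SE 0.18). Crkl, an adaptor of reelin signalling, was at 195 to 199 CPM in sh-NT and 128 to 184 CPM in sh-Gpc2. Tnrc6c, a partner of Argonaute proteins in microRNA silencing, had a log2 fold change of -0.34 (SE 0.15). Drosha, which starts microRNA processing, was at 179, 197 and 214 CPM in sh-NT and at 170, 184 and 94.8 CPM in sh-Gpc2 and overlapped.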
